A study of Mus musculus with 6 samples.

Results

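Oxidative phosphorylation subunit genes were examined in mouse primary oligodendrocyte precursor cells (mOPCs) after knockdown of Qk, which encodes the RNA-binding protein Quaking. The genes were taken by symbol, as those beginning with Nduf followed by a, b, c, s or v and a digit (complex I), with Uqcr (complex III), with Cox4 to Cox8 (complex IV) or with Atp5 (complex V), plus Sdhb, Sdhc and Sdhd (complex II). This gave 84 of the 23038 genes listed. By complex, 37 genes belonged to complex I, 3 to complex II, 8 to complex III, 19 to complex IV and 17 to complex V. Of the 84, 81 encode subunits or their tissue isoforms. Cox4nb (now Emc8), Atp5s (now Dmac2l) and Atp5sl (now Dmac2) carry the same prefixes but encode other proteins, and are described apart.

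The respiratory chain of the inner mitochondrial membrane passes electrons from NADH (complex I) and succinate (complex II) through ubiquinone, complex III and cytochrome c to oxygen at complex IV. Complexes I, III and IV pump protons, and complex V, the ATP synthase, lets them flow back to make ATP. Nuclear genes encode most subunits, and the mitochondrial genome encodes several core ones. Oligodendrocytes rely on this pathway while they differentiate and make myelin membrane.

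Libraries of polyadenylated RNA were compared between 3 cultures given control siRNA (siNC) and 3 given siRNA against Qk (siQk), collected 72 h after transfection. The cells had been immunopanned from mouse embryos at embryonic day 14.5 with no genetic modification stated. The study used 3 different siQk siRNAs, and the sources used here do not tell which of them went into which library, so differences between siRNAs are part of the spread between siQk libraries. A level is given as RPKM, the tags of a gene scaled to its exon length in kilobases and to the library total, where a tag is the unit the authors counted. A change is given as the log2 fold change, siQk over siNC, after TMM normalization, which rescales libraries so that the bulk of genes is level. Calls come from edgeR's quasi-likelihood test over the 12505 genes with an average logCPM over 0, and need P under 0.01 together with an FDR (Benjamini-Hochberg adjusted p) under 0.1.

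Qk itself lay at 209, 206 and 163 RPKM in the siNC libraries and at 51.3, 76.6 and 36.2 RPKM in the siQk libraries, and fell by 1.98 on the log2 scale (SE 0.28, adjusted p = 0.00311, edgeR). Library totals ran from 58166720 to 141046092 tags, and the 84 genes took 1.11% to 1.30% of them. The 5 OPC markers, all detected, summed to between 639 and 646 RPKM in siNC and between 840 and 998 RPKM in siQk, as deposited. Olig1, Olig2 and Cspg4 were higher in every siQk library, while Pdgfra and Sox10 overlapped between the groups. The 6 mature oligodendrocyte markers summed to 2360 to 4540 RPKM in siNC and 957 to 1570 RPKM in siQk, with Mog overlapping between the groups. The 5 astrocyte markers summed to 84.1 to 135 RPKM against 20.8 to 24.9 RPKM, most of it Gfap and Slc1a3, and Aqp4 overlapped between the groups. The 5 neuronal markers summed to 100 to 170 RPKM against 74.9 to 114 RPKM, most of it Tubb3. Snap25 and Syt1 among these were higher in every siQk library, at 3.35 to 7.57 against 0.641 to 0.886 RPKM and at 2.89 to 3.56 against 1.08 to 2.39 RPKM. Microglial markers (4) and fibroblast and vascular markers (5) summed to at most 0.239 RPKM in any library, with C1qa and Cldn5 at 0. In bulk RNA, fewer cells of a type and less RNA per cell cannot be told apart, and the part that the shift in cell type markers had in the values below was not tested.

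The subunit transcripts were abundant and close to level between the groups. Of the 81 subunit and isoform genes, 72 passed the filter on low counts, and 2 of these were called changed, both lower in siQk: Ndufa7 in complex I and Sdhc in complex II. Over all 12505 genes tested, 31.0% were called changed, 17.2% lower and 13.8% higher, against 2.78% of the 72 subunit genes. The direction of the calls rested on the scaling: with upper quartile normalization 0 subunit genes were called lower and 1 higher, and with library size only 0 lower and 7 higher. Over all tested genes, these scalings called 32.1% and 34.8% changed, in that order. With the 3 genes that are not subunits, 75 of the 84 were tested and 4 were called, 3 lower and 1 higher. The 72 log2 fold changes ran from -0.25 (Ndufb4) to 0.37 (Ndufa8) with a median of -0.03, where the median of all tested genes was 0.01. All 72 thus stayed within 1 on the log2 scale, whereas 670 of the tested genes were more than 1 lower and 338 were 1 or more higher.

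**Figure D1:**
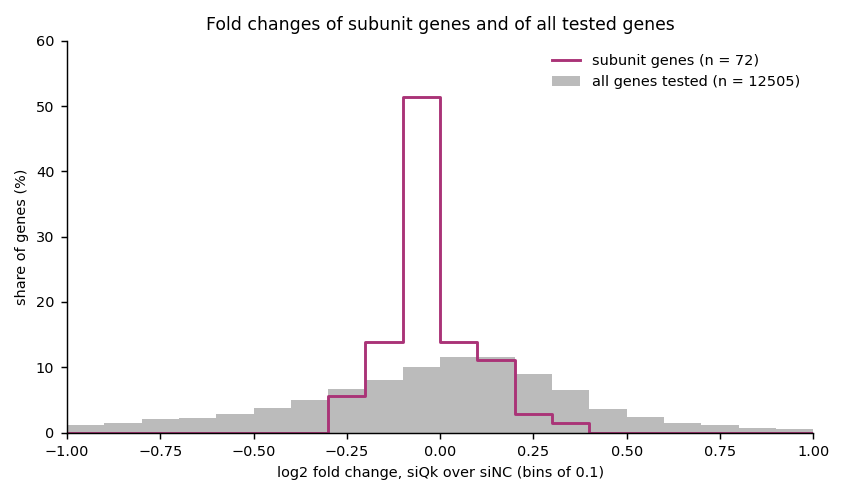
Share of genes (y axis, %) in bins of 0.1 of log2 fold change, siQk over siNC (x axis), for the 12505 genes tested (grey bars) and the 72 tested subunit genes (line); the axis shows changes within 1, and 670 and 338 tested genes lie outside it. The subunit genes are gathered around 0, with 47 of 72 within 0.1 on the log2 scale, against 21.7% of all tested genes.

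The median size of the log2 fold change, without its sign, was 0.08 for the subunit genes and 0.25 for all tested genes. The 95% interval of the fold change lay wholly within 0.5 of 0 on the log2 scale for 68 of the 72 subunit genes (94.4%), and for 46.3% of all tested genes. The median SD of log2 CPM between libraries of a group was 0.070 (siNC) and 0.048 (siQk) for subunit genes, and 0.138 and 0.090 for all tested genes. Subunit transcripts are short. Of the 792 tested genes with listed exons under 1000 bases, 21.1% were called changed, and of the longer ones 31.7%. Among the 296 of those that also had a logCPM over 5, 24.0% were called, and among the 45 subunit genes of that kind 1 was called (2.22%). The limits of 0.5, 1000 bases and logCPM 5 were chosen after the values had been seen, and no test over the set of genes was made.

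Levels spanned a wide range over the subunits. The 73 subunits that are not tissue isoforms had a median of 141 RPKM in siNC. Ndufa4 was the highest, with 614, 630 and 727 RPKM in siNC and 780, 761 and 786 RPKM in siQk. Its symbol places it in complex I, although its protein is known as a subunit of complex IV. Next came Atp5b, the catalytic beta subunit of the ATP synthase, with 593, 587 and 655 RPKM in siNC and 753, 754 and 744 RPKM in siQk. Cox4i1, the common form of complex IV subunit 4, followed with 587, 587 and 648 RPKM in siNC and 651, 672 and 660 RPKM in siQk. The siNC ranges of these 3 genes overlap, but within each siNC library Ndufa4 was the highest of the 3. Atp5b and Cox4i1 lay close together, both at 587 RPKM in siNC replicate 2. By complex, the median siNC level of the common subunits was 257 RPKM for complex IV (11 genes), 238 for V (15), 144 for III (8), 122 for I (36) and 112 for II (3).

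**Figure D2:**
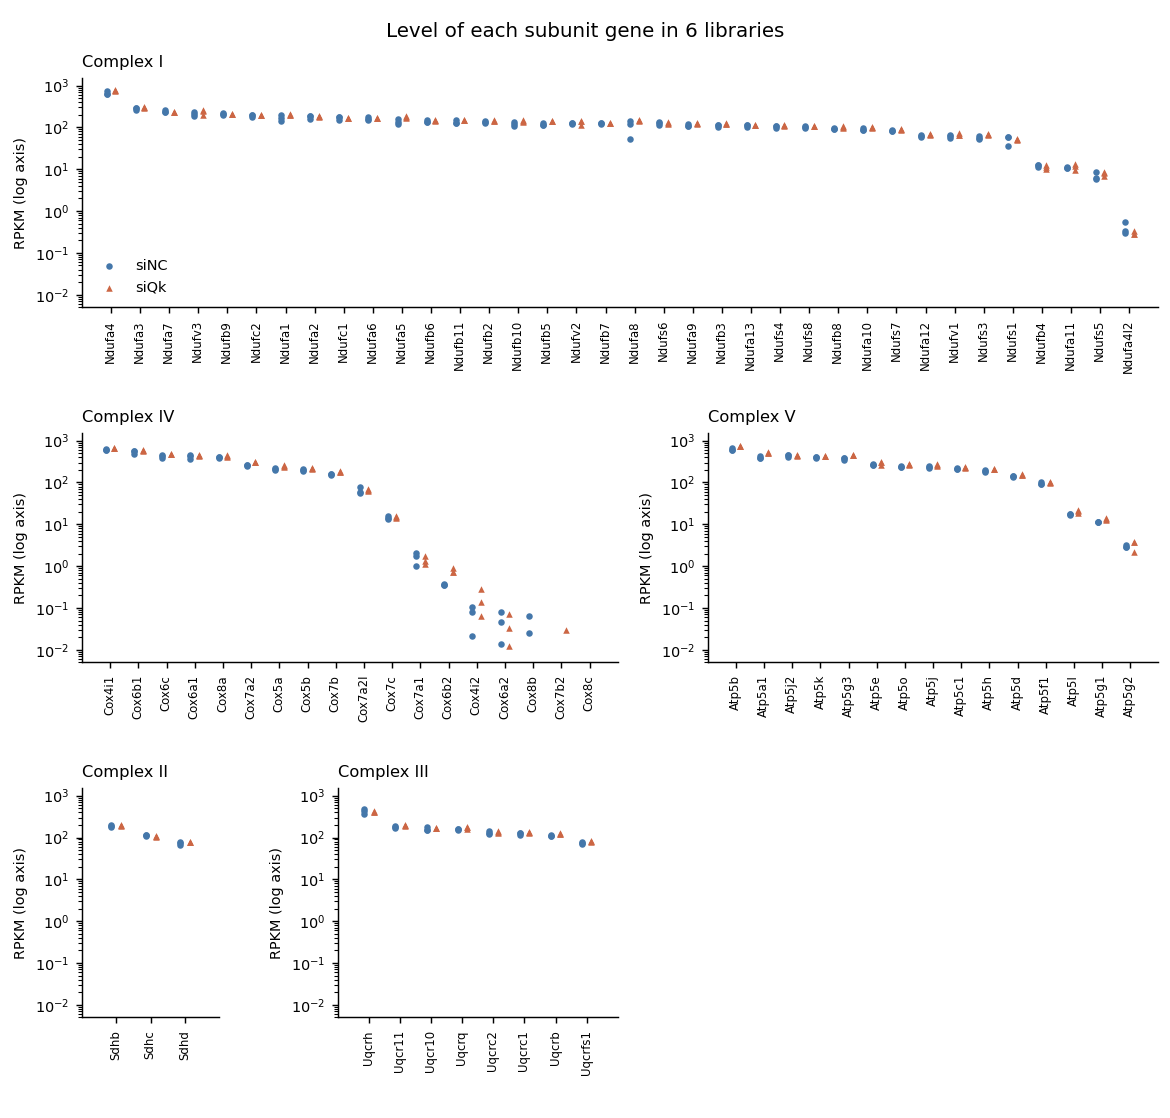
RPKM (log axis) of the 81 subunit and isoform genes but 1 in the 3 siNC libraries (circles) and the 3 siQk libraries (triangles), by complex and in order of mean level; values of 0 are not drawn. Common subunits mostly lie between 50.9 and 657 RPKM in siNC, and the tissue isoforms lie at or under 2.01 RPKM.

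On the deposited RPKM scale many subunits sat higher in siQk, which the rescaling between libraries took away. TMM gave factors of 0.899 to 0.987 to siNC and of 1.04 to 1.07 to siQk, and the RPKM carry no such factor. The lowest factor was that of siNC replicate 1. That library also had the fewest tags, and 3.11% of them fell on the gene Rn45s, against 0.169% to 0.389% in the others. As deposited, the siQk range lay above the siNC range for 35 of the 72 tested subunit genes and below it for 2, against 41.9% and 16.4% of all tested genes. Once each RPKM was divided by its library's TMM factor, 5 subunit genes lay above and 13 below, against 27.8% and 26.5% of all tested genes. The 5 above were Ndufa5, Ndufb5, Cox7a2, Atp5a1 and Atp5b. Of the 13 below, 10 belonged to complex I, 2 to complex II and 1 to complex III. Summed over the 81 genes, the level was 13634 ± 748 RPKM in siNC and 15052 ± 145 RPKM in siQk as deposited (SD, n = 3 each), a ratio of 1.10, and 14369 ± 747 and 14283 ± 272 when scaled, a ratio of 0.994. An exact two-sided permutation test of 3 libraries against 3 cannot go below p = 0.1, so none was made on these sums.

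**Figure D3:**
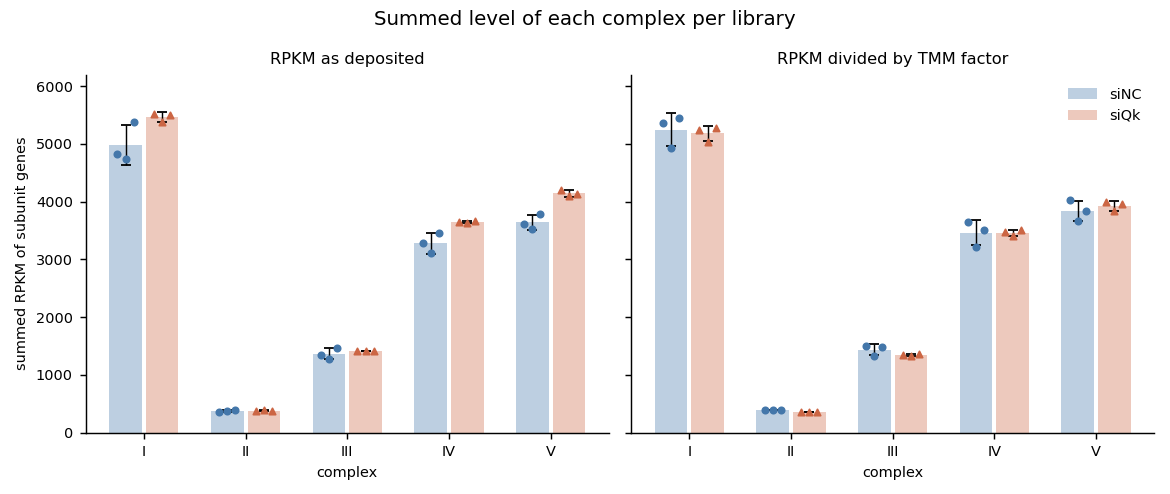
Summed RPKM of the subunit genes of each complex (y axis) as deposited (left) and divided by the TMM factor (right); points are libraries, bars the means and error bars the SD of 3 libraries. As deposited, the siQk sums of complexes IV and V lie above all siNC sums. Those of complex I barely do, with the lowest siQk sum at 5371.5 and the highest siNC sum at 5370.7. When scaled, the groups overlap in complexes I, III, IV and V. Complex II is then lower in siQk, at 362, 362 and 363 against 397, 386 and 395.

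Complex I takes electrons from NADH. Its 7 nuclear core subunits, which carry the flavin and the iron-sulfur clusters, had a median level of 82.5 RPKM in siNC, and none was called changed. Ndufs3, a subunit of the arm that leads to ubiquinone, was at 0.12 on the log2 scale (SE 0.08). It lay higher in every siQk library on the deposited scale, with 52.3, 55.3 and 63.9 RPKM in siNC and 70.8, 71.1 and 64.8 RPKM in siQk, and overlapped once scaled. Ndufv1 (which binds NADH), Ndufv2, Ndufs7 and Ndufs8 ran from -0.07 (Ndufv2) to -0.03 (Ndufv1). Ndufs1, which holds several of the clusters, lay at 58.4, 36.7 and 57.5 RPKM in siNC and at 49.9, 53.7 and 54.1 RPKM in siQk. Its low value was in siNC replicate 2, and without that library Ndufs1 was called lower, at -0.31 on the log2 scale (adjusted p = 0.0311, edgeR).

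Of the 30 other complex I genes, which are supernumerary subunits around the core and the isoform Ndufa4l2, 28 were tested. Of these, 1 was called (3.57%, against 31.0% of all tested genes). Ndufa7 (chromosome 17, 33824572 to 33838316, GRCm38), a subunit of the matrix arm, had 238, 238 and 263 RPKM in siNC and 230, 232 and 236 RPKM in siQk. The groups did not overlap, and the log2 fold change was -0.23 (SE 0.06, adjusted p = 0.0202, edgeR). This call was lost in 5 of the 6 fits that left out 1 library, all but the fit without siNC replicate 2, with adjusted p from 0.0154 to 0.0843 over the 6. It was also lost with upper quartile normalization (-0.17, adjusted p = 0.0551), with library size only (-0.08, adjusted p = 0.363), without a filter on low counts (-0.21, adjusted p = 0.0485) and with the replicate block (-0.23, adjusted p = 0.0586), all by edgeR. Ndufa5, another matrix arm subunit, had 124, 136 and 157 RPKM in siNC against 185, 182 and 168 RPKM in siQk, a log2 fold change of 0.21 (SE 0.08, adjusted p = 0.0695, edgeR), which did not pass the P cutoff. Without siNC replicate 3 it was called higher, at 0.28 (adjusted p = 0.024, edgeR).

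Ndufa8, which faces the intermembrane space, had the widest spread. Its siNC libraries had 118, 53.6 and 141 RPKM and its siQk libraries 146, 148 and 154 RPKM. The siNC replicate 2 value was again the low one, and the log2 fold change of 0.37 had an interval from -0.38 to 1.12 (adjusted p = 0.388, edgeR). The gap between this library and the nearest of its group, 1.23 on the log2 scale after TMM normalization, was larger than any other among the subunit genes, ahead of Atp5g2 in siQk replicate 2 (0.77) and Ndufs1 (0.61). Over all tested subunit genes, siNC replicate 2 deviated from the mean of the 6 libraries by a median of -0.053 on that scale. The medians were 0.063 and 0.039 in siNC replicates 1 and 3, and 0.009, -0.036 and 0.012 in siQk. Without siNC replicate 2, 4 subunit genes were called lower and 0 higher, with 28.6% of all tested genes called. The remaining tested supernumerary genes had log2 fold changes from -0.25 (Ndufb4, adjusted p = 0.115, edgeR) to 0.11 (Ndufa1, adjusted p = 0.487, edgeR). Ndufs5 was not tested, at 25 to 88 tags per library. Its listed exon length is 74 bases, against 680 bases for its GENCODE transcript.

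Complex II, succinate dehydrogenase, links the citric acid cycle to the chain. Its membrane anchor Sdhc (chromosome 1, 171129157 to 171150640, GRCm38) had 111, 113 and 113 RPKM in siNC and 103, 107 and 106 RPKM in siQk, without overlap. The log2 fold change was -0.24 (SE 0.06, adjusted p = 0.0179, edgeR). The call was lost in 4 of the 6 fits without 1 library, those without siNC replicate 1 or any of the siQk replicates, with adjusted p from 0.0202 to 0.0821 over the 6. It was also lost with upper quartile normalization (-0.18, adjusted p = 0.0418, P above the cutoff), with library size only (-0.09, adjusted p = 0.279) and with the replicate block (-0.24, adjusted p = 0.0659), all by edgeR. The other anchor, Sdhd, lay between 65.6 and 76.3 RPKM in siNC and between 78.0 and 80.1 RPKM in siQk, and its log2 fold change was 0.00 (interval -0.12 to 0.13). The iron-sulfur subunit Sdhb was at -0.10 (interval -0.22 to 0.03). The flavoprotein Sdha, which the name rule does not take, was at 0.05 (SE 0.06, adjusted p = 0.557, edgeR).

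Complex III passes electrons from ubiquinol to cytochrome c. None of its 8 genes was called changed. Uqcrh, the hinge protein that helps cytochrome c to dock, had 440, 373 and 471 RPKM in siNC and 398, 420 and 407 RPKM in siQk. Its groups overlapped through siNC replicate 2 (log2 fold change -0.22, SE 0.10, adjusted p = 0.117, edgeR), and without that library it was called lower at -0.32 (adjusted p = 0.0122, edgeR). The iron-sulfur subunit Uqcrfs1 was at -0.02 (interval -0.14 to 0.10) and the core proteins Uqcrc1 and Uqcrc2 at -0.05 and -0.10. The small subunits Uqcrb, Uqcrq, Uqcr10 and Uqcr11 ran from -0.10 (Uqcr10) to 0.02 (Uqcrb).

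Complex IV, cytochrome c oxidase, reduces oxygen, and several of its nuclear subunits exist as pairs of common and tissue isoforms. None of its 11 common subunits was called changed, and their log2 fold changes ran from -0.12 (Cox7c) to 0.12 (Cox5a). All 11 intervals lay within 0.5 of 0. Cox5a had 205, 201 and 218 RPKM in siNC and 258, 240 and 251 RPKM in siQk, apart on the deposited scale but not once scaled (log2 fold change 0.12, SE 0.06, adjusted p = 0.191, edgeR). Cox7a2 had 250, 256 and 266 RPKM in siNC and 313, 302 and 306 RPKM in siQk, apart on both scales (0.11, SE 0.06, adjusted p = 0.175, edgeR). Cox7a2l, a relative of Cox7a2 that joins complex IV to complex III, lay at 57.6, 56.3 and 76.3 RPKM in siNC and at 65.9, 68.6 and 62.7 RPKM in siQk, with siNC replicate 3 the high one. The common form was far above the tissue form in each pair. Cox4i1 stood at 607 ± 35.2 RPKM in siNC, whereas Cox4i2, the lung form, had 0.0218, 0.0802 and 0.106 RPKM. Cox6a1 stood at 417 ± 39.4 RPKM, whereas Cox6a2, the heart and muscle form, had at most 4 tags in any library. Cox7a2 stood at 257 ± 8.28 RPKM and Cox7a1, its heart and muscle form, at 1.61 ± 0.508 RPKM, with 1.39 ± 0.308 RPKM in siQk (SD, n = 3). Cox8a stood at 399 ± 8.13 RPKM, whereas Cox8b had 0 to 3 tags and Cox8c had 0 tags in all 6 libraries, where 3 tags would have been 0.0447 to 0.108 RPKM. Cox7b stood at 154 ± 4.17 RPKM, and Cox7b2 had 0 tags in 5 libraries and 2 tags in siQk replicate 3.

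Cox6b2, the testis form of subunit 6b, was the exception among the isoforms. It had 0.363, 0.352 and 0.382 RPKM in siNC and 0.738, 0.727 and 0.925 RPKM in siQk, from 13, 24 and 31 tags and 64, 37 and 72 tags. The groups did not overlap. It was below the filter of the test used here, and with edgeR's own filter on low counts it was called higher, at 0.99 on the log2 scale (adjusted p = 0.0213). Even in siQk its level was small beside that of Cox6b1, 585 ± 4.73 RPKM. In complex I the common Ndufa4 contrasted in the same way with Ndufa4l2, the hypoxia-induced relative, whose siNC libraries had 0.391 ± 0.126 RPKM and whose siQk libraries had 0.300 ± 0.0333 RPKM, with overlap.

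Complex V makes ATP in its F1 head, which is turned by a ring in the membrane. None of the 15 subunit genes was called changed. In the head, Atp5a1, the alpha subunit, had 375, 385 and 438 RPKM in siNC and 523, 517 and 503 RPKM in siQk. Its log2 fold change was 0.21 (SE 0.07, adjusted p = 0.0528, edgeR), and it was called higher by DESeq2 (0.21, adjusted p = 0.00595) and by edgeR with upper quartile normalization or library size only. Its partner Atp5b was at 0.14 (SE 0.07, adjusted p = 0.151, edgeR), and both lay above siNC in every siQk library on either scale. The stalk subunits Atp5c1, Atp5d and Atp5e were at -0.06, -0.05 and -0.03. The 10 genes of the membrane part and outer stalk ran from -0.14 (Atp5j2) to 0.12 (Atp5g3). Atp5o, the stalk subunit that confers oligomycin sensitivity, was at 0.03 (interval -0.12 to 0.19), and Atp5f1, of the outer stalk, at -0.08 (interval -0.25 to 0.10). Atp5g1, Atp5g2 and Atp5g3 encode the same ring subunit, and were listed at 11.3 ± 0.128, 2.97 ± 0.152 and 375 ± 24.6 RPKM in siNC. Atp5g1 and Atp5g2 share 92.8% and 100% of their coding windows of 75 bases with other genes and Atp5g3 shares 0%, so the order of the 3 levels may depend on how shared reads were counted, which was not tested.

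**Figure D4:**
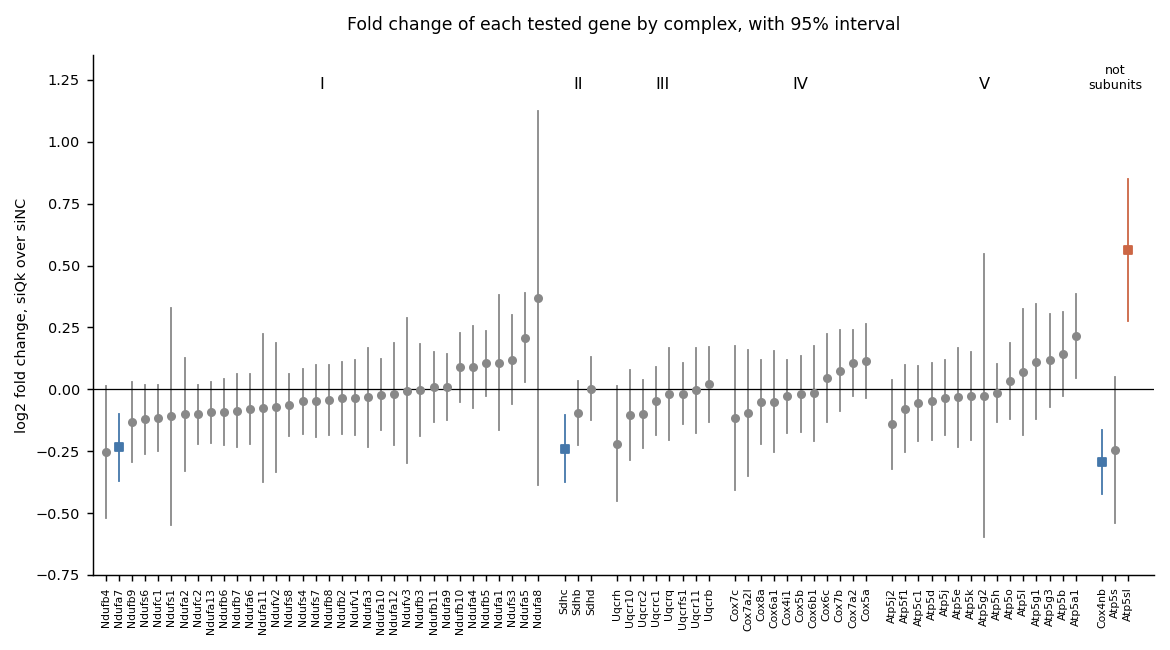
Log2 fold change, siQk over siNC, with its 95% interval for the 75 genes tested but 1, by complex and with the 3 genes that are not subunits at the right; squares mark called changes, blue lower and red higher. Ndufa7 and Sdhc are the called subunits, both near -0.24, and Atp5sl at 0.56 is the largest change drawn.

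Of the 3 genes that share the prefixes without encoding subunits, 2 were called changed, where 31.0% of all tested genes were. A list of 3 genes is too short to read a share from. Atp5sl, whose protein takes part in building complex I, had 4.45, 3.69 and 3.95 RPKM in siNC and 6.29, 7.10 and 6.49 RPKM in siQk, and rose by 0.56 on the log2 scale (SE 0.12, adjusted p = 0.013, edgeR). It lost the call without siQk replicate 2 (0.52, adjusted p = 0.0498, P above the cutoff). Cox4nb, which lies beside Cox4i1 on chromosome 8 and encodes a part of the ER membrane protein complex, fell by 0.29 on the log2 scale (SE 0.05, adjusted p = 0.00793, edgeR), with TMM-scaled levels of 26.6, 28.1 and 27.0 RPKM in siNC and 22.2, 22.8 and 21.7 RPKM in siQk. Its deposited RPKM overlapped between the groups, and scaling by library size alone left it uncalled (-0.14, adjusted p = 0.161, edgeR). Atp5s was at -0.25 (SE 0.12, adjusted p = 0.158, edgeR).

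A few common subunits had far fewer tags per length than the rest. In siNC 66 of the 73 lay at 50.9 RPKM or more, and 7 lay under 20 RPKM: Atp5l, Cox7c, Ndufb4, Atp5g1, Ndufa11, Ndufs5 and Atp5g2. For each gene, every window of 75 bases, the length of a read here, of the coding part of its GENCODE M21 transcript was looked up in the transcripts of all other annotated genes. In 4 genes, Atp5l, Cox7c, Ndufb4 and Atp5g2, 100% of the coding windows were also found in another gene, and all 4 were among the 7. Atp5g1 followed with 92.8% and Ndufs5 with 59.4%. None of the 66 higher genes exceeded 61.1% (Ndufa12, at 62.0 RPKM), and 42 of the 73 shared no window. Ndufa11 lay at 11.1 RPKM with 1.41% shared, and its listed exon length is 2445 bases, against 545 bases in GENCODE. Lengths also differed at higher levels, as in Ndufb8 (2290 against 680 bases, at 94.8 RPKM) and Ndufb2 (455 against 4371 bases, at 134 RPKM). The limit of 20 RPKM was chosen after the levels had been seen. How the authors' counting treated reads that map to several places is not given in the sources used here, so the levels of genes that share many windows are uncertain.

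The shared stretches are shown for the 4 genes with complete overlap, as 75 coding bases of GRCm38 read from GENCODE M21. Each was found without a mismatch in other annotated genes, 2 for Cox7c, 2 for Ndufb4, 8 for Atp5l and 2 for Atp5g2. Most of the close copies are pseudogenes, 7 of 8 for Atp5l and 2 of 2 for Cox7c.
Cox7c (coding bases 31 to 105): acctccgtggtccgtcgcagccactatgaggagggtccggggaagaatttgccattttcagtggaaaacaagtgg
Ndufb4 (coding bases 257 to 331): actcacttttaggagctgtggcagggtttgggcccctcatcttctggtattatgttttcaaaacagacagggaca
Atp5l (coding bases 211 to 285): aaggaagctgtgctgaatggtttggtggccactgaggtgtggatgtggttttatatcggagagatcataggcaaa
Atp5g2 (coding bases 1 to 75): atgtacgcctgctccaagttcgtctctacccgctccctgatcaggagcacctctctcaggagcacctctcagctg

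**Figure D5:**
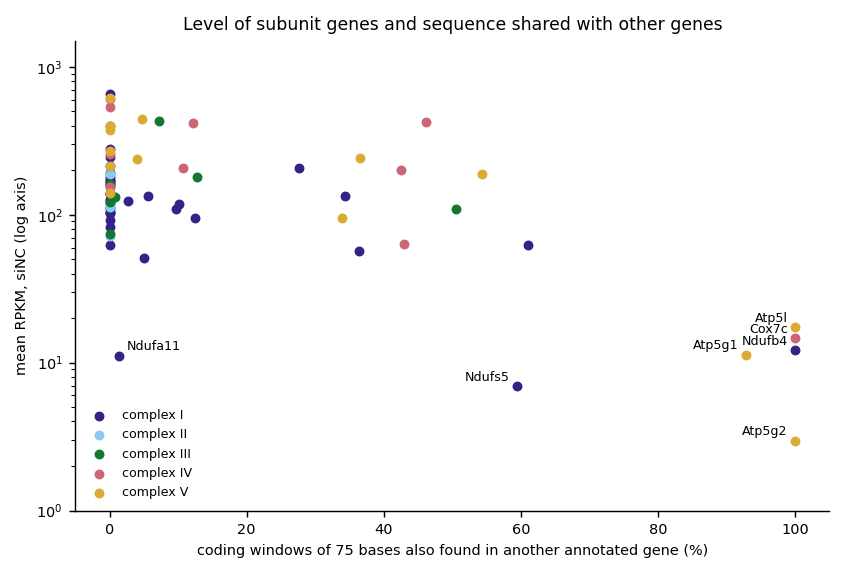
Mean siNC level (RPKM, log axis) of the 73 common subunit genes against the share of their coding windows of 75 bases that also occur in another annotated gene (%), coloured by complex; the 7 genes under 20 RPKM are named. The 4 genes at 100% all lie under 20 RPKM, while genes with up to 61.1% lie at 50.9 RPKM or more apart from Ndufa11 and Ndufs5.

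Nuclear genes of this pathway are known as targets of the transcription factors NRF1, GABP (an ETS factor) and YY1. In the RefSeq promoter windows (GRCm38.p6, 250 bases before to 50 after the start site), 62 of the 73 common subunits had a window. Matches were searched on both strands for the NRF1 core GCGCANGCG, the ETS core CCGGAAG and the YY1 motif AAGATGGC. The NRF1 core was in 30.6% of the common subunits, against 15.9% of tested genes and 7.03% of all 27025 genes in the table. The ETS core was in 25.8%, against 20.2% and 9.93%, and the YY1 motif was in 16.1%, against 5.4% and 3.19%. Any of the 3 was in 37 of the 62 genes (59.7%), against 35.7% of tested genes. A gene with several windows was counted if any of them held a match. None of the 4 tissue isoforms with a window held a match. A match describes the letters and shows no binding.

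1 promoter per complex that held matches to 2 of the motifs is shown 5′ to 3′ with the matches in capitals.
Ndufs6 (chr13:73328433-73328732, minus strand): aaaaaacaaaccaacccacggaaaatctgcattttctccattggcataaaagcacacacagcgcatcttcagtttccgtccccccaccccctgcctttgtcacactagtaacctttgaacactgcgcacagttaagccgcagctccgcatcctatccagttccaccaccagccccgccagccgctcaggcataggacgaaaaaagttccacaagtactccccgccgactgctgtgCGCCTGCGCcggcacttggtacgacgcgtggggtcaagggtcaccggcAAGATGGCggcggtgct
Sdhd (chr9:50603800-50604099, minus strand): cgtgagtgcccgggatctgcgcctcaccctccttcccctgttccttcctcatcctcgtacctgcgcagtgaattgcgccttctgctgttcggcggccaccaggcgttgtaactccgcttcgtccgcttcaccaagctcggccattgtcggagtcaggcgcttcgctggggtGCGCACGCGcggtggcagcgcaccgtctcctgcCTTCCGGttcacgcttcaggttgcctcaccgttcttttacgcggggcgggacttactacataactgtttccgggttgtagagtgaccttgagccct
Uqcr11 (chr10:80406772-80407071, minus strand): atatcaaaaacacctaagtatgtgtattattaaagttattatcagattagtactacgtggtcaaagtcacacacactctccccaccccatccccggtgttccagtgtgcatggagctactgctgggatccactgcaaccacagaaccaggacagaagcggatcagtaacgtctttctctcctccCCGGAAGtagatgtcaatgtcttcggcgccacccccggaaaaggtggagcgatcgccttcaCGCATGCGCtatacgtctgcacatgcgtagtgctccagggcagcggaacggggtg
Cox6a1 (chr5:115348909-115349208, minus strand): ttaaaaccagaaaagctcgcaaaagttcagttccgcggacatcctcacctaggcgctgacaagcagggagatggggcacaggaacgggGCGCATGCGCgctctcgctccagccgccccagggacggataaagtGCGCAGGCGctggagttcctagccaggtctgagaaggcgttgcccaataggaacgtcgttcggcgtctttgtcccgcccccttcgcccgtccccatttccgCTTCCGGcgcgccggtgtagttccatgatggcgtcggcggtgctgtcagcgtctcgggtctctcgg
Atp5k (chr5:108434350-108434649, minus strand): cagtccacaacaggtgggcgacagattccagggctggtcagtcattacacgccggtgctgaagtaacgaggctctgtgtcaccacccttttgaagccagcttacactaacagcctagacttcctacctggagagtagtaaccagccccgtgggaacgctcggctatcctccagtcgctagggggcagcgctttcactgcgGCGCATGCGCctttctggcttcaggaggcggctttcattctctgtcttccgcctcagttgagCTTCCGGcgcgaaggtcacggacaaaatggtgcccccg
In the Ndufs6 window the capitals mark an NRF1 core 15 bases before the start site and a YY1 motif after it. The Sdhd, Uqcr11, Cox6a1 and Atp5k windows each hold NRF1 and ETS cores, and in Cox6a1 and Atp5k a palindromic NRF1 stretch matches on both strands, with an overlap. The log2 fold changes of these 5 genes were -0.12 (Ndufs6), 0.00 (Sdhd), 0.00 (Uqcr11), -0.05 (Cox6a1) and -0.03 (Atp5k), and none was called.

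The lists of genes around the pathway held calls at shares below the 31.0% of all tested genes called changed. Of 45 assembly factors, which build the complexes, all were tested, and 3 were called lower and 2 higher. Both directions together made 11.1%, against 31.0% of all tested genes (17.2% lower and 13.8% higher). The median log2 fold change of the list was 0.01. Sdhaf4, an assembly factor of complex II, had 34.5, 35.5 and 40.5 RPKM in siNC and 30.7, 31.3 and 30.0 RPKM in siQk, and fell by 0.42 on the log2 scale (SE 0.07, adjusted p = 0.00694, edgeR). Uqcc2, for complex III, and Pet100, for complex IV, were called lower at -0.28 and -0.25 (adjusted p = 0.0181 and 0.0256, edgeR). Ndufaf6, for complex I, was called higher at 0.62 (SE 0.14, adjusted p = 0.0155, edgeR), and Tmem70, known for the ATP synthase, at 0.47 (SE 0.10, adjusted p = 0.0116, edgeR).

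Of 15 regulators of mitochondrial genes, 2 were called, both higher (13.3%, against 13.8% of all tested genes called higher), with a median of 0.18. Polrmt, the mitochondrial RNA polymerase, had 7.93, 8.01 and 8.71 RPKM in siNC and 11.6, 12.7 and 11.5 RPKM in siQk, and rose by 0.39 on the log2 scale (SE 0.07, adjusted p = 0.00614, edgeR). Tfb2m, its transcription factor, rose by 0.36 (SE 0.10, adjusted p = 0.0272, edgeR). Nrf1 and Yy1 were not called, at 0.12 and -0.01. Gabpa, at -0.31 (SE 0.09, adjusted p = 0.0327, edgeR), passed the FDR cutoff but not the P cutoff, and so was not called lower. Of 19 genes listed for the citric acid cycle and electron carriers, 3 were called lower (15.8%, against 17.2% of all tested genes). None was called higher, and the median was 0.04. The list also held Ndufab1, a complex I gene that the name rule does not take, at 0.14 (SE 0.07, adjusted p = 0.159, edgeR). Idh3a, the catalytic subunit of a cycle enzyme, had 73.0, 72.7 and 66.9 RPKM in siNC and 59.4, 59.4 and 56.5 RPKM in siQk, and fell by 0.43 on the log2 scale (SE 0.08, adjusted p = 0.00718, edgeR). Etfa and Etfdh, which carry electrons from fatty acid oxidation to ubiquinone, fell by 0.41 and 0.30 on the log2 scale (adjusted p = 0.00741 and 0.017, edgeR). Subunits encoded by the mitochondrial genome were looked for by symbol, but none was among the genes listed, so they could not be analysed.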

How the data were processed

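RNA-seq libraries of mOPCs (3 siNC, 3 siQk) were analysed. The authors aligned 75-nt paired-end reads to mm10 (per the labels) using OLego, and gene quantification was by Quantas (versions not given in the sources used here). Deposited values were, for each gene, estimated counts (tags, not normalized) and exon length. The authors also deposited RPKM, which tags, exon lengths and totals gave again to within 0.036%. The sources do not say if tags are reads or pairs.

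Groups and replicate numbers came from the titles. Whether the numbers pair cultures was checked, and the check showed no pairing but could not exclude it. Expected counts were rounded. Genes with an average logCPM over 0 were tested with edgeR 4.0.16 (quasi-likelihood, TMM, group only, R 4.3.3), adjusting over all 12505. SE was derived from the log2 fold change and its F statistic. The step was tested on simulated data. The replicate libraries differed by more than sampling noise (chi-square per degree of freedom 36.3 or more). Depth and the floor of 3 tags cover counting error only.

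Any gene of the set could be named, with full statistics for up to 3 called genes at each end per complex and isoform pairs. Of related lists, the 3 lowest and 3 highest called genes were named. Genes with a library far from its group, and those named for low levels, were chosen after their values were seen. So were Nrf1, Gabpa, Yy1, Sdha, Ndufab1 and Cox4nb's role. 18 assembly factors and 1 regulator were found under older symbols. The genes and lists were chosen with earlier results of these data known. Alternatives were other normalizations, filters and tests, a replicate block, 1 library left out, thinning, and Rn45s left out of every library. 1 gene of the set enters all counts and fits but is not reported here.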

Additional observations from a re-analysis of the deposited data

How the results depend on the processing

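Qk kept its call in all 17 alternatives (adjusted p 4.21e-13 to 0.0194), and no called gene changed direction. Of 1195 values of genes called in neither fit, 132 had the other sign. Leaving out 1 library gave 1 to 6 changed genes of the set, 1 to 5 lower and 0 to 2 higher, where all 6 libraries gave 4, 3 and 1. The share of all tested genes called was 19.8% to 29.7% in those fits, against 31.0% with all 6 libraries. Library size only gave 8 changed, 0 lower and 8 higher, with 34.8% of all tested genes called. It moved the median of all tested genes from 0.01 to 0.16. Beside that shift the subunit median of 0.12 was lower. Upper quartile normalization gave 1 lower and 2 higher, with 32.1% of all tested genes called. Leaving out Rn45s, or thinning to the smallest library, gave the same 4 calls as the main fit. In these fits 31.0% and 30.5% of all tested genes were called, and the subunit medians were -0.033 and -0.037. No filter, edgeR's own filter and DESeq2 each gave 2 higher, with 23.4%, 28.4% and 39.1% of all tested genes called.

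The medians of complexes I, II, III, IV and V were 0.104, 0.055, 0.118, 0.133 and 0.127 with library size only. With upper quartile normalization they were 0.013, -0.035, 0.028, 0.042 and 0.033. Without a filter that of II was -0.072. Leaving out 1 library gave medians from -0.077 to -0.022 (I), -0.117 to -0.077 (II), -0.064 to -0.030 (III), -0.064 to 0.022 (IV) and -0.052 to 0.030 (V). The summed ratios moved from 1.10, 1.02, 1.04, 1.11 and 1.14 for I to V to between 0.922 (II) and 1.02 (V) once scaled. In the 150 bases around the start, any of the 3 motifs was in 56.5% of common subunits and 28.7% of tested genes.

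With the replicate block 2 genes were called, 1 lower (Cox4nb) and 1 higher (Atp5sl), and Ndufa7 and Sdhc had adjusted p = 0.0586 and 0.0659 (edgeR). In that fit 22.4% of all tested genes were called. Same-numbered libraries deviated with correlations of -0.0528, -0.152 and -0.34, which show no pairing. With deviations from means of only 3 libraries, this check cannot exclude that same-numbered libraries shared a culture. The causes of these differences were not tested. The low counts of Ndufs5 and the isoforms limit what could be detected for them. With 3 libraries a group, neither an interval that includes 0 nor a missing call shows that a transcript was unchanged.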
